A study of Mus musculus with 12 samples.

Results

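The Hedgehog response and co-receptor genes are 9 genes of the Hedgehog pathway, Ptch1, Hhip, Gli1, Gli2, Gli3, Smo, Cdon, Boc and Gas1, followed here in embryonic tissue of the mouse upper face. They were listed by symbol and found by their Ensembl gene identifier, 1 row each among the 53392 gene rows of the deposited tables, and all 9 passed the filter on low counts in each of the 4 comparisons made. Polyadenylated RNA was sequenced in 12 libraries, 4 groups of 3, all on the 129S4 strain background. The palatal groups are palatal shelf mesenchyme at E13.5 (E, embryonic day) from Pdgfra+/+ embryos (WT) and from PdgfraPI3K/PI3K embryos (PI3K), which are homozygous for a knock-in allele of the PDGF receptor alpha gene whose product does not bind PI3K. The maxillary groups are maxillary process mesenchyme at E11.5. Both maxillary groups are homozygous for a floxed allele of the splicing factor gene Srsf3, in embryos without the Wnt1-Cre transgene (Srsf3fl/fl;Wnt1-Cre+/+, Control) or with it (Srsf3fl/fl;Wnt1-Cre+/Tg, cKO). Wnt1-Cre acts in the neural crest lineage, which gives most of the facial mesenchyme, and leaves the endothelium and the ectoderm unrecombined. The ectoderm was digested off with trypsin before RNA was taken, the libraries are described as biological replicates, and the labels do not say how many embryos went into each.

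Hedgehog ligands are secreted proteins. In the developing palate and face, Sonic hedgehog is made mainly by the epithelium and read by the mesenchyme beneath it. Without ligand the receptor Patched keeps Smoothened inactive and Gli proteins, Gli3 above all, are cut into repressors. Ligand binding frees Smoothened, full-length Gli proteins act as activators, and Ptch1, Hhip and Gli1 are themselves transcribed in response, so that their transcripts are widely read as a measure of the signal. Gas1, Cdon and Boc are membrane proteins that bind ligand together with Patched, and in many tissues their transcripts are lowered by Hedgehog signalling.

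The palatal libraries held 30.5 to 37.4 M estimated counts (M, megacounts) and the maxillary libraries 15.9 to 27.9 M. Srsf3 was not lower in the libraries labelled cKO (586 ± 105 CPM, the depth-scaled count, SD, n = 3) than in Control (574 ± 25.5 CPM, SD, n = 3). Its log2 fold change was 0.03 with a 95% interval from -0.29 to 0.35, and it was -0.16 on log2(TPM + 1), where TPM is the abundance of transcripts scaled by their length and by the library total. The gene total therefore does not check the label cKO, and every direction given below for that group is that of the libraries so labelled. Of 7 markers of facial mesenchyme, including Pdgfra, Twist1 and Prrx1, none was at 0 in any group, with a summed level of 1642 to 2595 TPM in the maxillary libraries and 3367 to 4938 TPM in the palatal ones. In the palatal libraries most of that sum is Col1a1 and Col3a1, the collagen genes of the list, while Twist1 and Prrx1 were lower in WT than in Control (-0.85 and -0.55 on the log2 scale, adjusted p = 0.00109 and 0.00915, edgeR). Tissue, embryonic day, the floxed allele and the sequencing lane in the labels all differ together between the palatal and the maxillary libraries and cannot be told apart.

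The 9 genes spanned a wide range of levels. In TPM, which lets genes be set side by side, Smo was the highest of the 9 in WT (149.5 ± 5.44 TPM, SD, n = 3) and in PI3K (141.8 ± 15.6 TPM, SD, n = 3). In WT it was followed by Ptch1 at 132 ± 36.8, Gas1 at 98.6 ± 14.2 and Gli1 at 77.3 ± 22.0 TPM, and each of these 4 genes overlapped with its neighbour in the order. Gli3 at 46.9 ± 7.18 and Gli2 at 46.6 ± 4.63 TPM lay below all Gli1 values and were not separated from each other. Boc (38.0 ± 4.11), Cdon (21.1 ± 1.13) and Hhip (12.1 ± 0.392 TPM) followed, each with all 3 libraries below those of the gene before it. In PI3K the first 4 genes came in the same order, Gli2 (56.9 ± 15.3), Boc (54.9 ± 19.0) and Gli3 (49.2 ± 7.62 TPM) followed without separation, and Cdon (21.6 ± 2.10) and Hhip (14.5 ± 4.67 TPM) were again the lowest.

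The maxillary order was different. In Control, Gas1 led with 214 ± 19.6 TPM (SD, n = 3), above Smo at 148.6 ± 2.48 TPM in every library, and Gli3 (78.6 ± 8.67) and Gli2 (75.5 ± 10.5 TPM) came next. Gli1 (39.9 ± 15.9), Ptch1 (31.2 ± 8.44), Boc (29.6 ± 10.8) and Cdon (27.8 ± 2.06 TPM) overlapped from neighbour to neighbour, and Hhip was last at 0.335 ± 0.197 TPM. In cKO the order was the same down to Ptch1, but the libraries of Gas1 (164 ± 23.7 TPM) and Smo (141.7 ± 7.79 TPM) overlapped, Gli3 (75.6 ± 7.48) lay above Gli2 (49.4 ± 6.24 TPM) in every library, and Cdon (18.4 ± 2.27) stood before Boc (16.8 ± 4.06 TPM). Ptch1 thus ranked second of the 9 genes in both palatal groups and was the sixth in both maxillary groups.

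**Figure D1:**
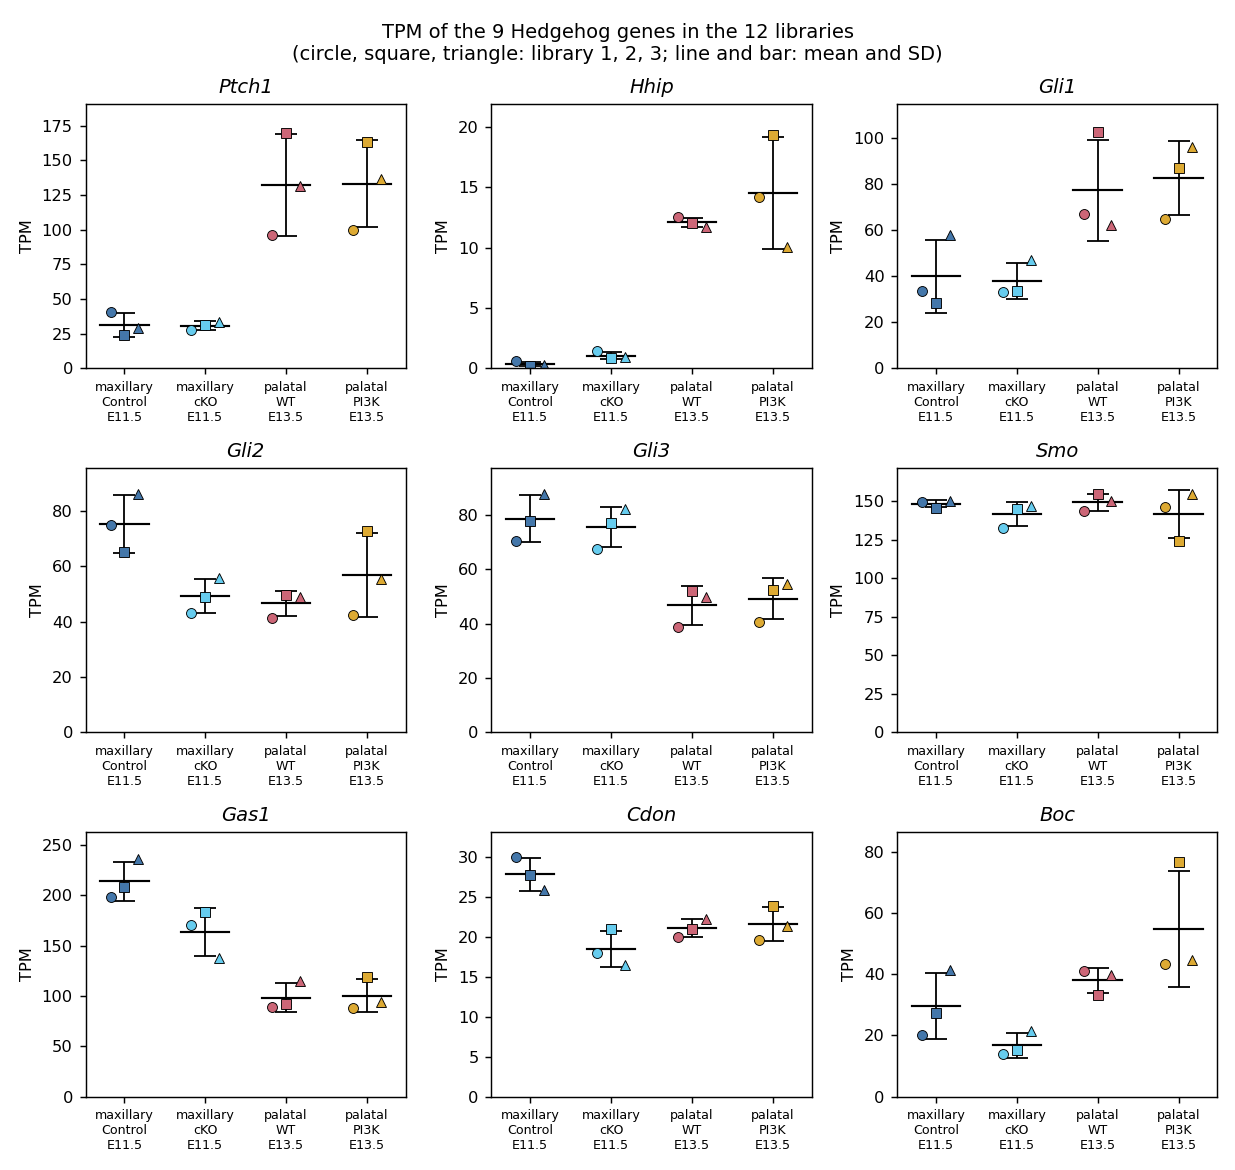
TPM of each of the 9 genes in the 12 libraries (vertical axis, linear, from 0; each panel has its own scale), by group on the horizontal axis; circle, square and triangle are libraries 1, 2 and 3, and line and bar are the mean and SD of the 3. Ptch1, Hhip and Gli1 sit higher in the palatal groups, Gas1 and Gli3 lower, and Smo lies between 124.5 and 154.8 TPM in all 12 libraries.

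The palatal and maxillary groups were compared in separate pairs of groups, WT against Control and PI3K against cKO, which share no library. With edgeR's quasi-likelihood test and Benjamini-Hochberg adjustment over all genes, 7 of the 9 genes passed a false discovery rate (FDR) of 0.05 in WT against Control. Ptch1, Gli1 and Hhip were higher in the palatal libraries, and Gli2, Gli3, Cdon and Gas1 lower. Of all 15752 genes tested 50.6% passed, 27.1% higher and 23.4% lower, so a call here is common. In PI3K against cKO 6 of 9 passed, Ptch1, Gli1, Hhip and Boc higher and Gli3 and Gas1 lower, where 43.3% of 15948 genes did (23.4% higher, 19.9% lower). The groups did not overlap for 7 and 7 of the 9 genes, against 62.1% and 57.2% of all genes, and 7 and 6 of the 9 had an unadjusted p under 0.05, against 57.2% and 51.6%. Both comparisons called Ptch1, Gli1, Hhip, Gli3 and Gas1 in the same direction, which is 71.4% of the first list and 83.3% of the second, against 68.7% and 79.3% for all genes. The median log2 fold change of the 9 genes was -0.14 and 0.01, beside 0.03 in each over all genes.

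Ptch1, the receptor that is also transcribed in response to the signal, lies on chromosome 13 (63508328 to 63573598, minus strand, GRCm38). Its TPM was 95.9, 169.5 and 131 in WT and 100.04, 163 and 137 in PI3K, against 40.4, 23.8 and 29.3 in Control and 27.2, 31.0 and 33.5 in cKO. All 6 palatal libraries lay above all 6 maxillary ones. The log2 fold change was 1.95 (SE 0.23, adjusted p = 0.00063, edgeR) in WT against Control and 1.90 (SE 0.18, adjusted p = 0.000298, edgeR) in PI3K against cKO.

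Hhip encodes a membrane protein that binds Hedgehog ligands and limits their reach, and it lies on chromosome 8 (79965851 to 80058006, minus strand). It had 12.5, 12.01 and 11.7 TPM in WT and 14.2, 19.4 and 10.0 TPM in PI3K. In Control it had 0.562, 0.207 and 0.236 TPM, which rests on 41, 20 and 27.4 estimated counts, and in cKO 1.39, 0.808 and 0.899 TPM. Its tissue difference exceeded that of every other gene of the 9, with a log2 fold change of 4.94 (SE 0.28, adjusted p = 3.66e-05, edgeR) in WT against Control and 3.66 (SE 0.21, adjusted p = 5.33e-05, edgeR) in PI3K against cKO. On log2(TPM + 1), where the pseudocount is larger than the Control level, the values were 3.30 and 2.90. The 250 bases before the RefSeq start of these 2 response genes are printed from the RefSeq table for GRCm38.p6, 5′ to 3′ on the minus strand, with each CpG in capitals, because both windows are rich in CpG and the genes differ most between the tissues. They are chr13:63565736-63565985 for Ptch1, inside the gene span given above, and chr8:80058009-80058258 for Hhip.
Ptch1: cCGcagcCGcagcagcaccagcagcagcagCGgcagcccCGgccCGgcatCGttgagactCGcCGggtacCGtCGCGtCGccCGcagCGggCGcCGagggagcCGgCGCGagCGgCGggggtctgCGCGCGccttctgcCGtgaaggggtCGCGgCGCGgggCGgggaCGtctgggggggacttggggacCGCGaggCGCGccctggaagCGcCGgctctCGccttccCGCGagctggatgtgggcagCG
Hhip: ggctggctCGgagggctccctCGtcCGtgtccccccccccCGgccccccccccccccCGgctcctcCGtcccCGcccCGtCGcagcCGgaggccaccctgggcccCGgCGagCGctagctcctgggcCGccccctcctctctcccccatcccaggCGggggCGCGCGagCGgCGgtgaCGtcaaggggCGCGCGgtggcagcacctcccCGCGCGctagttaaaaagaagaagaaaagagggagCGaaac
The Ptch1 window holds 41 CpG, more than 98.9% of the 32851 RefSeq windows searched, and the Hhip window 28, more than 92.4%, where the median window has 6. Over the 7 genes with a window the number ran from 1 (Cdon) to 41. Gli3 and Gli2, lower in the palatal libraries of WT against Control, had 34 and 22 CpG (more than 96.5% and 85.2% of windows), so Gli3 lay above Hhip. The Cdon window, chr9:35451826-35452075, lies inside the gene, whose annotated span starts at 35421128 on the plus strand. The Gli motif GACCACCCA, searched on both strands (reverse TGGGTGGTC) over 300 bases around each start, was in 83 windows (0.253%), in 0 of these 7 and in 0 of the windows of 31 other pathway genes. At 0.253% of windows a match among so few genes was unlikely from the start, so its absence says little about them. No letters outside these windows were searched.

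Gli1, on chromosome 10 (127329882 to 127341974, minus strand), encodes the Gli activator that is made in response to the signal. Its TPM was 66.9, 102.6 and 62.4 in WT and 64.8, 87.1 and 96.3 in PI3K, against 33.6, 28.1 and 58.0 in Control and 33.0, 33.8 and 47.2 in cKO. Control library 3 was the highest maxillary library and came close to WT library 3. The log2 fold change was 0.81 (SE 0.28, adjusted p = 0.0447, edgeR) in WT against Control, where the CPM values of the groups overlapped, and 0.89 (SE 0.21, adjusted p = 0.00997, edgeR) in PI3K against cKO, where they did not. The first call was lost in 5 of the 6 fits that left out 1 library, without any WT library (adjusted p 0.0655, 0.141 and 0.0509 without library 1, 2 and 3) and without Control library 1 or 2 (0.135 and 0.158), and held without Control library 3 at a log2 fold change of 1.12.

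Gli2 and Gli3, on chromosomes 1 (118834132 to 119053619, minus strand) and 13 (15463235 to 15730026, plus strand), encode the Gli proteins that carry most of the activator and most of the repressor activity. Gli3 had 38.7, 52.1 and 49.8 TPM in WT and 40.5, 52.3 and 54.8 in PI3K, against 70.5, 77.7 and 87.7 in Control and 67.5, 76.9 and 82.3 in cKO. It was lower in the palatal libraries in both comparisons, by a log2 fold change of -0.96 (SE 0.11, adjusted p = 0.000599, edgeR) and -0.87 (SE 0.15, adjusted p = 0.00253, edgeR). Gli2 had 41.3, 49.6 and 49.0 TPM in WT and 74.8, 65.3 and 86.3 in Control, with a log2 fold change of -0.75 (SE 0.11, adjusted p = 0.00158, edgeR). In PI3K (42.3, 72.8 and 55.5 TPM) and cKO (43.3, 49.1 and 55.7 TPM) the Gli2 values overlapped. There the log2 fold change was -0.13 with an interval from -0.55 to 0.28, and it was 0.17 on log2(TPM + 1). Whether the counting used strand is not given in the sources used here. Genes that overlap on the other strand had few counts, at most 51 for Arhgap9 at Gli1, 265 for Gm6556 at Gli3 and 51 for Gm48488 at Gas1.

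The makeup of the Gli transcripts differed accordingly. Gli1 was 44.8 ± 5.79% of the summed TPM of the 3 Gli genes in WT and 43.8 ± 2.80% in PI3K, against 20.1 ± 4.44% in Control and 23.2 ± 2.21% in cKO (SD, n = 3 each). Library by library the share ran from 38.7% to 50.2% in the palatal libraries and from 16.4% to 25.5% in the maxillary ones, with no overlap. Gli3 was 27.6 ± 2.91% in WT and 40.9 ± 4.01% in Control. The Gli2 share was 39.1 ± 2.42% in Control and 30.3 ± 0.346% in cKO, and those groups did not overlap either.

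**Figure D2:**
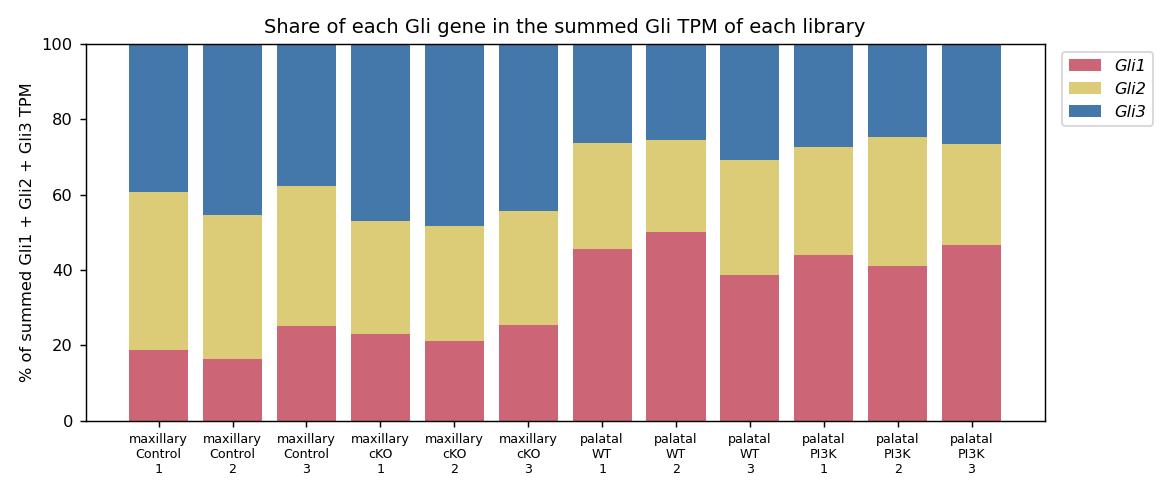
Share of Gli1, Gli2 and Gli3 in their summed TPM (vertical axis, percent, stacked to 100) in each of the 12 libraries (horizontal axis). The Gli1 share is 16.4% to 25.5% in the 6 maxillary libraries and 38.7% to 50.2% in the 6 palatal libraries.

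Smo, on chromosome 6 (29735503 to 29761365, plus strand), encodes the membrane protein that passes the signal on once Patched is bound. It had 143.8, 154.6 and 150.0 TPM in WT and 149.6, 145.7 and 150.4 TPM in Control. Its log2 fold change was -0.14 in WT against Control (interval -0.34 to 0.05, adjusted p = 0.181, edgeR) and -0.23 in PI3K against cKO (interval -0.49 to 0.03, adjusted p = 0.129, edgeR). The first value was 0.01 on log2(TPM + 1), so that no direction is given for Smo. The scaling matters here because the deposited TPM of the median gene was higher in the palatal libraries by 0.16 in WT against Control and by 0.21 in PI3K against cKO on log2(TPM + 1), against 0.03 in each with edgeR. On that scale 70.9% and 76.0% of the calls over all genes were higher in the palatal libraries, against 53.7% and 54.0% with edgeR.

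Of the co-receptors, Gas1, a membrane-anchored protein encoded on chromosome 13 (60174405 to 60177365, minus strand), was lower in the palatal libraries. It had 88.8, 92.1 and 114.8 TPM in WT and 88.2, 119 and 94.2 in PI3K, against 198, 208 and 236 in Control and 170.4, 183 and 137 in cKO, and all 6 maxillary libraries lay above all 6 palatal ones. The log2 fold change was -1.25 (SE 0.11, adjusted p = 0.000192, edgeR) in WT against Control and -0.83 (SE 0.17, adjusted p = 0.00527, edgeR) in PI3K against cKO.

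Cdon and Boc encode related cell surface proteins of the immunoglobulin superfamily, and each passed in 1 of the 2 comparisons. Cdon, on chromosome 9 (35421128 to 35507652, plus strand), had 20.0, 21.0 and 22.3 TPM in WT and 30.0, 27.7 and 25.8 TPM in Control, a log2 fold change of -0.61 (SE 0.12, adjusted p = 0.00418, edgeR). In PI3K (19.6, 23.8 and 21.4 TPM) and cKO (17.9, 20.9 and 16.5 TPM) the values overlapped, and the log2 fold change was 0.01 with an interval from -0.30 to 0.33. Boc, on chromosome 16 (44485049 to 44558897, minus strand), had 40.9, 33.3 and 39.7 TPM in WT and 20.1, 27.5 and 41.3 TPM in Control. Control library 3 lay above every WT library, and the log2 fold change was 0.21 (interval -0.27 to 0.70, adjusted p = 0.42, edgeR). Without Control library 3 it was 0.45 and passed with an adjusted p of 0.0483 (edgeR), and without Control library 1 it was 0.00. In PI3K (43.3, 76.8 and 44.5 TPM) against cKO (13.8, 15.1 and 21.4 TPM) Boc was higher by 1.49 on the log2 scale (SE 0.27, adjusted p = 0.00359, edgeR), with no overlap.

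Whether the tissue difference itself differed between the pairs of groups was tested in 1 fit of all 12 libraries, as PI3K minus cKO less WT minus Control on the log2 scale. None of the 9 genes passed, where 7 of 16877 genes (0.0415%) did, and 4 of the 9 had an unadjusted p under 0.05, where 8.69% of all genes had one. The values were 1.30 for Boc (SE 0.38, adjusted p = 0.36, edgeR), -1.26 for Hhip (SE 0.35, adjusted p = 0.346, edgeR), 0.64 for Cdon (SE 0.18, adjusted p = 0.346, edgeR) and 0.64 for Gli2 (SE 0.23, adjusted p = 0.473, edgeR). Ptch1 (-0.03), Gli1 (0.11), Gli3 (0.11), Smo (-0.06) and Gas1 (0.45) had an unadjusted p above 0.05.

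**Figure D3:**
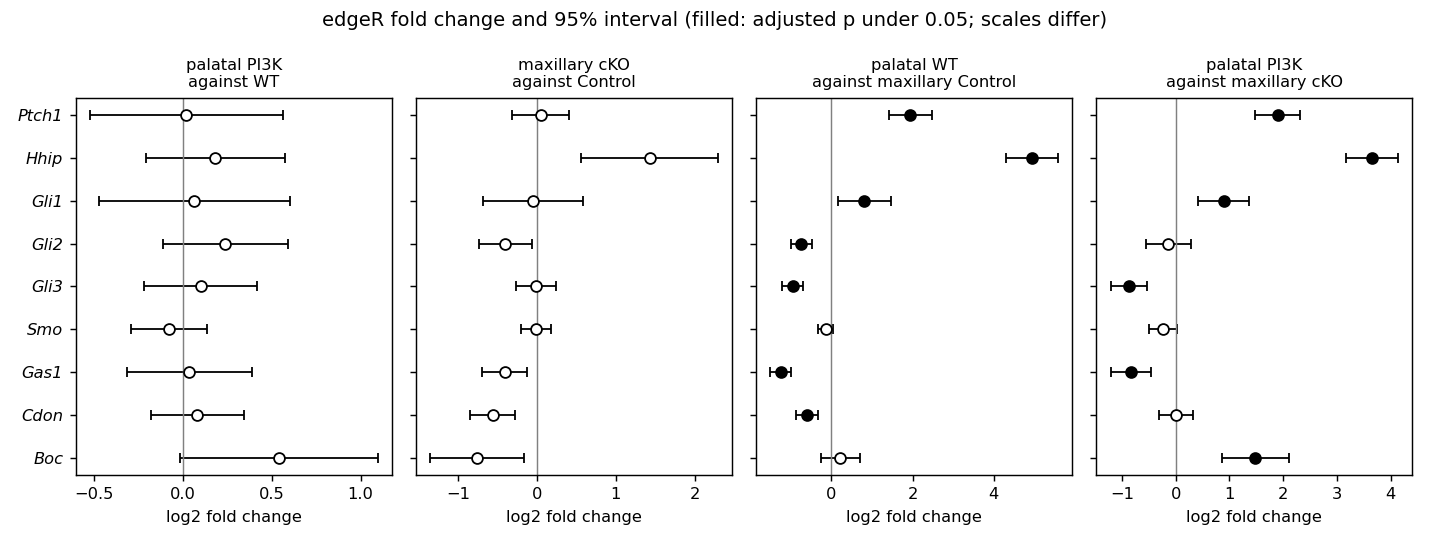
Log2 fold change of each of the 9 genes (points) with its 95% interval (bars) in the 4 comparisons, from edgeR; the horizontal scales differ between panels, and a filled point has an adjusted p under 0.05. No point is filled in the 2 genotype comparisons, 7 are filled in WT against Control and 6 in PI3K against cKO.

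The ligand gene was measured in the same libraries. Shh had 10.6, 15.5 and 15.98 TPM in WT and 13.0, 19.3 and 8.65 TPM in PI3K. In Control it had 0 counts in every library, and in cKO 0, 0 and 5. Against a floor of 3 counts per library, Shh was at least 117-fold higher in WT than in Control. Markers of the ectoderm, the tissue that makes Shh in the palate and that was digested off, differed in the same way: 9 of 9 were higher in both comparisons, with a summed level of 509.5 to 705 TPM in WT and 315 to 717 TPM in PI3K against 1.66 to 6.73 TPM in Control and 8.30 to 14.2 TPM in cKO. None of the 9, among them Epcam, Cdh1 and Krt14, was at 0 in all libraries of a group. Ectodermal transcripts were thus present in the libraries labelled palatal mesenchyme. In bulk tissue, fewer cells of a type and less RNA per cell cannot be told apart, and the part of ectodermal RNA in the tissue differences of the 9 genes was not tested. Within the palatal groups, WT library 1 had the lowest Ptch1, Shh and ectoderm values of its group, and WT library 2 had the highest Ptch1 and Gli1. WT library 3 had the highest Shh and ectoderm values of its group and the lowest Gli1 and Hhip. PI3K library 2 had the highest Shh, ectoderm, Ptch1 and Hhip values of its group. PI3K library 3 had the lowest Shh, ectoderm and Hhip values of its group and the highest Gli1.

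**Figure D4:**
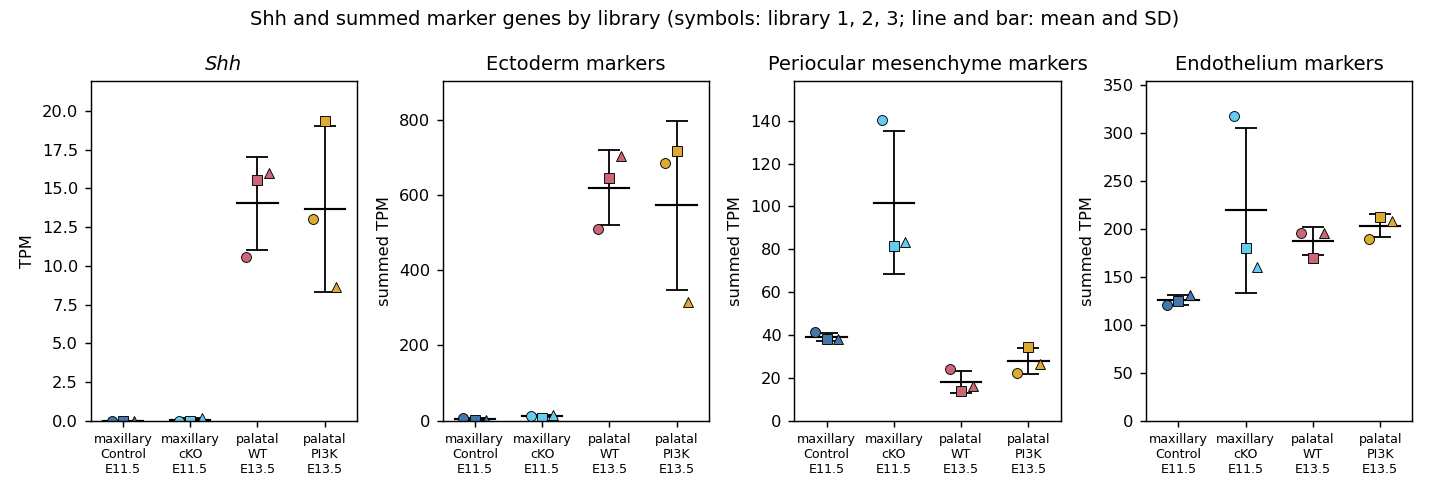
Shh TPM and the summed TPM of the ectoderm, periocular mesenchyme and endothelium markers (vertical axes, linear, from 0) in the 12 libraries by group; symbols are libraries 1, 2 and 3, and line and bar are the mean and SD. Shh and the ectoderm sum are near 0 in the maxillary groups, and the periocular and endothelium sums of all 3 cKO libraries lie above those of Control.

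Beyond the 9 genes, 44 other genes of the pathway were followed in lists by role. The lists were chosen with earlier results of these data known, so counts over them are not independent evidence. In WT against Control 24 of the 43 tested passed, 14 higher and 10 lower in the palatal libraries, and in PI3K against cKO 15 of 43 passed, 9 higher and 6 lower. Their median log2 fold change was -0.02 and 0.07, beside 0.03 over all genes in each. These shares of 55.8% and 34.9% stand beside the 50.6% and 43.3% of all genes. Among the 7 tested genes for ligands and their release, Scube2 and Scube3, for secreted proteins that help release the ligand, were higher and Scube1 lower in WT against Control (1.84, 0.65 and -1.05 on the log2 scale), and Scube2 and Scube1 passed likewise in PI3K against cKO (2.71 and -1.92). The Scube2 call in WT against Control held without WT library 2 or Control library 2 and was lost without each of the others (adjusted p up to 0.0633, edgeR). The median of this list was 0.13 in WT against Control, with Shh at its bound of 6.87 as well.

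The list of genes that respond to Hedgehog in facial or other mesenchyme held the larger differences. In WT against Control 7 of its 11 genes were higher and 2 lower, where 27.1% of all genes were called higher and 23.4% lower. In PI3K against cKO 5 were higher and 3 lower, where 23.4% and 19.9% of all genes were. The medians were 1.23 and 0.23. This list too was chosen with earlier results of these data known, so its counts and medians are not independent evidence. The forkhead genes Foxf1, Foxf2 and Foxl1, which act downstream of Hedgehog in palatal mesenchyme or gut mesenchyme, were higher in both, Foxf1 by 2.78 and 4.55, Foxf2 by 3.04 and 2.71 and Foxl1 by 4.24 and 2.95 on the log2 scale. Foxf2 had 139, 143.5 and 180.5 TPM in WT and 9.02, 14.4 and 27.1 TPM in Control. Osr2, a transcription factor gene of the growing palatal shelf, was higher by 2.36 and 3.47, and the survival gene Bcl2 by 1.19 and 0.86. The proliferation genes Mycn (-2.29 and -2.46) and Ccnd1 (-0.91 and -0.95) were lower in both, though Ccnd1 did not pass in PI3K against cKO on log2(TPM + 1) (adjusted p = 0.0588, limma). Foxd1 (3.64) and Ccnd2 (0.36, lost without WT library 3 or Control library 2 at adjusted p of 0.0554 and 0.0952, edgeR) passed in WT against Control, and Foxc2 (-1.75) in PI3K against cKO, where it did not pass in the fit of all 12 libraries (adjusted p = 0.119, edgeR). Scube3 did not pass in WT against Control in that fit (adjusted p = 0.0825, edgeR).

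The genes that work inside the cell and at the cilium differed by less. In WT against Control 4 of 19 were higher and 7 lower, beside 27.1% and 23.4% of all genes, or 50.6% in either direction. In PI3K against cKO 2 were higher and 2 lower, beside 23.4% and 19.9%, or 43.3% in either direction. The medians were -0.14 and -0.02. Sufu, which holds Gli proteins back, was lower by a log2 fold change of -0.25, Gsk3b and Btrc, which prepare Gli proteins for cutting, by -0.40 and -0.35, and Evc by -0.24, while its partner Evc2 (0.23), Iqce (0.37), Tulp3 (0.64) and Mgrn1 (0.24) were higher. Grk2 (-0.30), Mosmo (-0.51) and Stk36 (-0.36) were lower too. Evc turned to 0.03 on log2(TPM + 1), and Sufu, Gsk3b, Btrc, Grk2 and Mosmo did not pass on that scale. Evc, Evc2, Stk36 and Mgrn1 lost their call in each fit without 1 library except the fit without WT library 2, with adjusted p up to 0.171, 0.177, 0.168 and 0.141 (edgeR). Sufu lost it except without WT library 2 or Control library 3 (adjusted p up to 0.14, edgeR), and Grk2 without WT library 3 (adjusted p = 0.0649, edgeR). Sufu, Evc and Stk36 also lost it with upper-quartile normalisation (0.0945, 0.133 and 0.0947, edgeR), without a filter on low counts (0.104, 0.129 and 0.0942) and with a filter of more than 1 CPM in 3 libraries (0.0564, 0.0702 and 0.0618). Evc2 lost it without a filter (0.0592, edgeR), and Evc and Evc2 lost it with DESeq2 (0.059 and 0.0749) and in the fit of all 12 libraries (0.226 and 0.0627, edgeR). In PI3K against cKO the calls were Tulp3 (0.40), Mgrn1 (0.36), Gsk3b (-0.34) and Mosmo (-0.66), and Gsk3b was 0.00 and Mosmo -0.03 on log2(TPM + 1). Tulp3 kept its call only without PI3K library 3 (otherwise adjusted p up to 0.138, edgeR), Gsk3b and Mgrn1 only without PI3K library 2 or cKO library 1 (up to 0.106 and 0.115, edgeR), and Mosmo lost it without cKO library 2 or 3 (0.0526 and 0.0736, edgeR). Gsk3b also lost its call with upper-quartile normalisation and without a filter (0.0594 and 0.0781, edgeR), and Tulp3 with DESeq2 (0.0502) and with RLE normalisation (0.0507, edgeR). None of 6 genes for transport in the cilium, Ift88 and Kif3a among them, passed in either comparison.

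**Figure D5:**
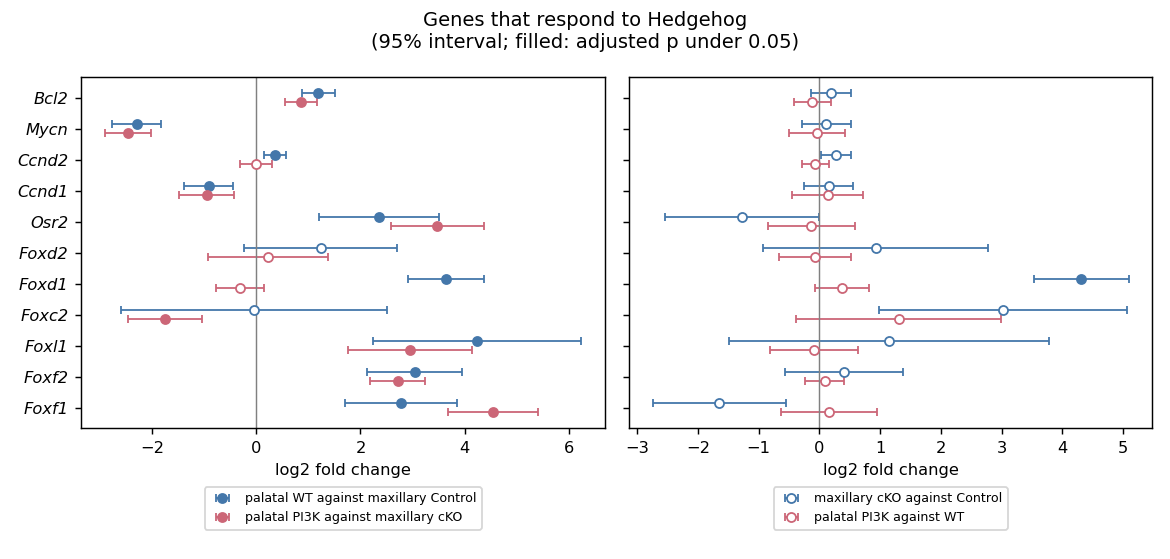
Log2 fold change with 95% interval (horizontal axis) of the 11 listed response genes in the tissue comparisons (left) and the genotype comparisons (right); filled points have an adjusted p under 0.05. On the left Foxf1, Foxf2, Foxl1, Osr2 and Bcl2 lie to the right of 0 in both comparisons and Mycn and Ccnd1 to the left, and on the right Foxd1 in the libraries labelled cKO is the filled point.

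The first genotype comparison set the maxillary libraries labelled cKO against Control, which asks what loss of Srsf3 in the neural crest lineage does to the genes. With edgeR none of the 9 Hedgehog genes passed the FDR, where 12 of 14254 genes (0.0842%) did, 0.0561% higher and 0.0281% lower. At an unadjusted p under 0.05 there were 5 of the 9, Hhip with a higher value and Cdon, Gas1, Gli2 and Boc with lower ones, where 12.2% of all genes reached it. The groups did not overlap for 4 of the 9, Hhip, Cdon, Gas1 and Gli2, against 18.1% of all genes. DESeq2, run without the filter on low counts, called 382 of 23499 genes. It called 2 of the 9, Hhip (log2 fold change 1.44, adjusted p = 0.0257, DESeq2) and Cdon (-0.56, adjusted p = 0.0168, DESeq2).

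Hhip had the largest fold change of the 9, with 0.562, 0.207 and 0.236 TPM in Control and 1.39, 0.808 and 0.899 TPM in the libraries labelled cKO. Its estimated counts were 41, 20 and 27.4 in Control and 80, 111 and 92 in cKO, and its log2 fold change was 1.43 (SE 0.37, interval 0.56 to 2.29, adjusted p = 0.271, edgeR). The highest of the libraries labelled cKO lay below the lowest palatal library, at 10.0 TPM. Of the co-receptors, Cdon had 30.0, 27.7 and 25.8 TPM and 17.9, 20.9 and 16.5 TPM, with a log2 fold change of -0.56 (SE 0.12, interval -0.85 to -0.28, adjusted p = 0.184, edgeR). Gas1 was 198, 208 and 236 TPM in Control and 170.4, 183 and 137 TPM in cKO, a log2 fold change of -0.41 (SE 0.12, interval -0.69 to -0.13, adjusted p = 0.292, edgeR). Boc was 20.1, 27.5 and 41.3 TPM and 13.8, 15.1 and 21.4 TPM, with a log2 fold change of -0.76 (SE 0.25, interval -1.35 to -0.17, adjusted p = 0.33, edgeR). The values of all 3 co-receptors were thus lower in the libraries labelled cKO without passing the test, and those of Boc overlapped. Without Control library 3 the Boc value was -0.48.

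Gli2 had 74.8, 65.3 and 86.3 TPM in Control and 43.3, 49.1 and 55.7 TPM in the libraries labelled cKO, with no overlap, and a log2 fold change of -0.40 (SE 0.14, interval -0.74 to -0.07, adjusted p = 0.359, edgeR). On log2(TPM + 1) it was -0.60. The remaining genes gave values near 0 with intervals that leave room for moderate change. They were 0.05 for Ptch1 (-0.32 to 0.41), -0.05 for Gli1 (-0.68 to 0.58), -0.01 for Gli3 (-0.27 to 0.25) and -0.02 for Smo (-0.21 to 0.18).

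Among the other pathway genes 1 of 41 tested passed in this comparison, where 0.0842% of all genes did. An unadjusted p under 0.05 was reached by 8 of the 41, where 12.2% of all genes had one. Foxd1, a forkhead gene of the jaw mesenchyme, rose from 0.794, 0.929 and 1.55 TPM in Control to 14.7, 20.1 and 27.6 TPM in the libraries labelled cKO, a log2 fold change of 4.31 (SE 0.33, adjusted p = 0.0078, edgeR). Its call was lost without Control library 2 (adjusted p = 0.087, edgeR) and without Control library 3 (adjusted p = 0.0512, edgeR), with log2 fold changes of 4.14 and 4.18. The Foxd1 values of the libraries labelled cKO overlapped with those of the palatal libraries (11.55 to 20.4 TPM). That Foxd1 changes in these libraries was known when the lists were drawn up, so this count is not independent evidence. Foxc2 (3.02, adjusted p = 0.292, edgeR) and Tulp3 (0.24, adjusted p = 0.35, edgeR) had higher values, and Foxf1 (-1.65, adjusted p = 0.289, edgeR), Kif7 (-0.36, adjusted p = 0.275, edgeR) and Stk36 (-0.32, adjusted p = 0.386, edgeR) lower ones. DESeq2 called Foxf1 as well (-1.65, adjusted p = 0.00441, DESeq2).

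Markers of other cells moved in the same libraries. Of the 4 periocular mesenchyme markers, Foxc1 and Pou3f4 had higher values in the libraries labelled cKO with an unadjusted p under 0.05, and Pou3f4 passed the FDR. Rarb was higher in cKO library 1 (49.1 TPM) and lower in the other two (22.8 and 22.3 TPM) than in Control (30.2 to 32.5 TPM). Lmx1b overlapped, with 0.337 to 6.155 TPM (median 0.341) in cKO and 0.02 to 1.499 TPM (median 1.009) in Control. The 4 markers' summed level was 81.5 to 140.4 TPM in cKO against 38.1 to 41.4 TPM in Control. The 5 endothelium markers all had an unadjusted p under 0.05, where 12.2% of all genes had one, and none passed. Their summed level was 161 to 318 TPM in cKO against 121 to 131.5 TPM in Control. In both sums cKO library 1 was the highest. Without it the Hhip value was 1.47, Cdon -0.55, Gas1 -0.42, Gli2 -0.29 and Boc -0.64. Ectoderm markers summed to 8.30 to 14.2 TPM in cKO and 1.66 to 6.73 TPM in Control, with 4 of 7 tested at an unadjusted p under 0.05. Neuron and glia markers were 34.5 to 47.0 TPM in cKO and 44.8 to 158 TPM in Control, with the highest sum in Control library 3, which also had the highest Boc, Gli1, Gli2, Gli3 and Gas1 of its group. Frontonasal mesenchyme markers were 117 to 187 TPM in cKO and 206 to 216 TPM in Control. Of the 7 markers of facial mesenchyme, 5 had lower and 2 higher values in cKO. None passed, and 1 had an unadjusted p under 0.05, where 12.2% of all genes had one. Prrx1 was 231.8 to 453 TPM in cKO and 516.9 to 609.3 TPM in Control, and Twist1 328.8 to 554.9 TPM and 582 to 787.9 TPM. The part of these cells in the values of the 9 genes was not tested.

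The second genotype comparison set PI3K against WT in the palatal shelf, which asks what the loss of PI3K binding by the receptor does. Pdgfra itself had 139.8, 130.3 and 144.5 TPM in WT and 186, 200.5 and 243 TPM in PI3K, with no overlap, but its counts per library overlapped (502.6, 469.5 and 500.9 CPM in WT and 451.8, 479.6 and 561.5 CPM in PI3K). Its log2 fold change was 0.02 with edgeR (adjusted p = 0.9997) and 0.59 on log2(TPM + 1) (adjusted p = 0.9999, limma). None of the 9 genes passed, as none of 16525 genes did (0%), and none had an unadjusted p under 0.05, where 2.14% of all genes did. DESeq2 called 4 of 27533 genes and none of the 9. Boc came closest, with 40.9, 33.3 and 39.7 TPM in WT and 43.3, 76.8 and 44.5 TPM in PI3K. It was the 1 gene of the 9 whose groups did not overlap, where 6.23% of all genes had that pattern. Its log2 fold change was 0.54 (SE 0.24, interval -0.02 to 1.097, adjusted p = 0.9997, edgeR), and without PI3K library 2, the high one, it was 0.20.

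The response genes differed little between the palatal groups. The log2 fold change was 0.02 for Ptch1 (interval -0.52 to 0.56), 0.06 for Gli1 (-0.47 to 0.60) and 0.18 for Hhip (-0.21 to 0.58), intervals that leave room for changes up to those bounds. For the other genes it was 0.24 for Gli2 (-0.11 to 0.59), 0.10 for Gli3 (-0.22 to 0.42), -0.08 for Smo (-0.29 to 0.13), 0.08 for Cdon (-0.18 to 0.34) and 0.04 for Gas1 (-0.32 to 0.39). PI3K library 2 had the highest Boc, Ptch1, Gli2, Hhip, Gas1 and Cdon of its group and the lowest Smo. Of the 44 other pathway genes 0 passed and 0 had an unadjusted p under 0.05, where 0% and 2.14% of all genes did. Foxd1 (0.37), Dync2h1 (0.22) and Foxc2 (1.30) came first among higher values, and Scube2 (-0.51), Kif7 (-0.09) and the ligand gene Ihh (-1.14) among lower ones. Skeletal muscle markers summed to 37.2 to 224.5 TPM in PI3K and 4.16 to 55.9 TPM in WT, with all 5 at higher values. Within the PI3K group, library 2, with the highest Boc, had the lowest muscle sum (37.2 TPM, against 224.5 and 129 TPM in libraries 1 and 3). The part of muscle in the Boc value was not tested.

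Because the series is concerned with splicing, the transcript mix of each gene was followed through its effective length, the estimated count divided by TPM, taken relative to the median gene of the same library. It falls when shorter transcripts gain. Boc has only 1 annotated transcript, so its ratio could not move with a transcript mix and its result here was fixed in advance. None of the 9 genes passed in PI3K against WT, where 1 of 12907 genes did (0.00775%), and none of the 8 tested passed in cKO against Control, where 1 of 11002 did (0.00909%). At an unadjusted p under 0.05 there were 0 of the 9, where 3.9% of all genes had one, and 1 of the 8. Hhip had too few counts there to be tested. The values closest to the threshold in cKO against Control were those of Gas1 and Gli2. For Gas1, with annotated coding transcripts of 1155 and 2961 nucleotides, the log2 change was -0.07 (SE 0.02, unadjusted p = 0.022 and adjusted p = 0.827, limma), and 5.16% of all genes had an unadjusted p under 0.05. For Gli2, whose coding transcripts run from 803 to 6637 nucleotides, it was 0.17 (SE 0.07, adjusted p = 0.86, limma). The other values in that comparison lay between -0.03 for Gli1 and 0.01 for Ptch1, and in PI3K against WT all 9 lay between -0.05 for Hhip and 0.04 for Cdon.

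The genes most like Gli1 and Ptch1 over the 12 libraries were looked for among 11434 genes with a mean of at least 5 CPM, as a description only. By the root mean square difference of centred log2 CPM, the nearest to Gli1 were Khdrbs3 (0.22), St6gal2 (0.23) and Irs1 (0.25), and the nearest to Ptch1 were Plekha7 (0.25), Zdhhc14 (0.25) and Celf4 (0.28). Gli1 ranked 583 among the neighbours of Ptch1, and Ptch1 ranked 4673 among those of Gli1. With each group's mean removed, so that the tissue and genotype differences no longer count, the highest Pearson r with Gli1 was 0.926 for Zfp618, 0.921 for Marf1 and 0.921 for Anapc11, and with Ptch1 0.941 for Zwilch, 0.939 for 9430015G10Rik and 0.931 for Rbbp5. Between Gli1 and Ptch1 it was 0.575, between Gli1 and Gli2 0.761, between Gli1 and Gli3 0.725 and between Gli1 and Cdon -0.467. By r with Gli1, Gli2 ranked 187, Gli3 288, Ptch1 945 and Cdon 10121 among the 11434 genes. These r values run over 12 libraries in 4 groups of 3, which share depth and tissue makeup within a library.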

How the data were processed

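Estimated counts and TPM per gene had been deposited by the authors as tables with 1 column per library. The submitters' processing notes name STAR 2.7.0, Salmon 1.1.0, DESeq2 1.28.1 and the build mm10, without their roles. Transcript index and strand setting are not given in the sources used here. Identifiers were matched without version to GENCODE M21 (53355 of 53392). After rounding of the deposited counts, edgeR (version 4.0.16, under R 4.3.3) gave the tests (quasi-likelihood F-test, TMM normalisation, filterByExpr, Benjamini-Hochberg adjustment over all genes, FDR 0.05). Each comparison used its own 6 libraries with the group as the only term, and the test between tissue differences, added after the data had been seen, used all 12. Effective length (count divided by TPM, at least 50 counts in all 6 libraries) was tested with limma 3.58.1. Alternatives were RLE and upper-quartile normalisation, other filters, DESeq2 (1.42.0), log2 TPM after a pseudocount of 1 or 0.1 in limma, a replicate block, a joint fit and leaving out each library. The tests were tried on simulated data first. Genes named are all 9 members, Pdgfra and Srsf3, listed pathway genes past the FDR in any comparison, and in the genotype comparisons up to 3 with the smallest p in each direction. Some items of the pathway and marker lists are not reported here. Members and lists were chosen with earlier results of these data known.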

Additional observations from a re-analysis of the deposited data

How the results depend on the processing

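Depth limits Hhip in the maxillary libraries, and groups of 3 leave wide intervals, for Gli1 from 0.15 to 1.47 on the log2 scale in WT against Control. The number of the 9 genes called stayed at 0 and 0 in the genotype comparisons, except for 2 in cKO against Control with DESeq2. It was 6 in WT against Control with log2(TPM + 0.1) and with the replicate block, where Gli1 was lost (adjusted p 0.059 and 0.0788), and 6 in PI3K against cKO in all settings. Leaving out 1 library gave 0 to 0, 0 to 0, 6 to 8 and 6 to 6 called in the 4 comparisons. Over all genes, calls in cKO against Control went from 12 to 143 without a filter, 382 with DESeq2, 7 with log2(TPM + 1), 40 with the replicate block and 2 to 29 without 1 library, and in PI3K against WT from 0 to 4 with DESeq2; the cause was not tested.

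On log2(TPM + 1) and log2(TPM + 0.1) the sign turned for Smo in WT against Control (0.0081 and 0.0082), Gli2 in PI3K against cKO (0.1746 and 0.1772), Evc in WT against Control (0.0289 and 0.0296) and Srsf3 in cKO against Control (-0.1557 and -0.156). Without centring, the effective length change in cKO against Control turned for Gli1 (0.2321), Cdon (0.2552) and Gas1 (0.1901). After rescaling by the TMM factors Smo was 151.6 TPM in Control and Hhip 11.68 TPM in WT.

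With 1 library left out, the sign also turned for values near 0. In PI3K against WT the range was -0.1292 to 0.2796 for Ptch1, -0.0718 to 0.3467 for Gli1, -0.0261 to 0.163 for Cdon, -0.1211 to 0.1599 for Gas1, -3.2178 to 0.0708 for Ihh and -0.0654 to 0.0991 for Pdgfra. In cKO against Control it was -0.0656 to 0.2189 for Ptch1, -0.2415 to 0.3105 for Gli1, -0.0767 to 0.0685 for Gli3, -0.0374 to 0.0286 for Smo, -0.3237 to 0.108 for Pdgfra and -0.0738 to 0.1703 for Srsf3. In PI3K against cKO it was -0.0886 to 0.1076 for Cdon. For the effective length it was -0.0287 to 0.0457 for Ptch1, -0.0829 to 0.0163 for Gli2 and -0.1291 to 0.0462 for Hhip in PI3K against WT, and -0.0552 to 0.0931 for Ptch1, -0.0619 to 0.0117 for Gli1 and -0.0251 to 0.0131 for Cdon in cKO against Control.

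The replicate numbers are shared between groups, but libraries of the same number did not deviate together throughout: r was 0.533, 0.222 and -0.22 in PI3K against WT, 0.081, 0.113 and 0.23 in cKO against Control, and -0.143 to 0.045 in the tissue comparisons. In PI3K against WT libraries 1 and 2, and in cKO against Control libraries 1 and 3, correlated best with their own number. The replicate block gave 0, 40, 6835 and 5900 calls over all genes, and among the 9 genes it changed the call of Gli1 in WT against Control. Of the other pathway genes named, those not past the FDR with the block were Sufu (adjusted p 0.074), Evc (0.0824), Evc2 (0.0773), Stk36 (0.0915), Mgrn1 (0.0809), Scube2 (0.0609) and Ccnd2 (0.0544) in WT against Control and Gsk3b (0.0503) in PI3K against cKO.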
